A study of Mus musculus with 3 samples.

Results

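The T cell receptor alpha locus was examined through its 108 V segments and its constant gene. Members were the genes of GENCODE M21 named Trav with the gene type of a receptor V gene, plus Trac, so they numbered 109 of 55536 genes. The RNA came from regulatory T cells (Tregs, CD4 T cells that restrain immune responses) that had experienced inflammation, taken from an adult male mouse of 6 months. The strain was Foxp3CreERT2 x Rosa26YFP, which pairs a tamoxifen-responsive Cre at the Treg gene Foxp3 with a yellow fluorescent reporter at Rosa26. There was 1 group of 1 biological replicate with 3 technical replicates, called libraries 1, 2 and 3 here by their technical replicate numbers. The step at which they were split, the kind of inflammation, the tissue and the sorting gate are not in the labels.

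Each T cell precursor builds an alpha chain gene by joining 1 V segment to 1 J segment, and the joined exon is spliced to the constant gene Trac. The V segment supplies the leader and most of the variable domain, including some of the loops that contact antigen and MHC. A mature T cell and its descendants keep the chosen V segment, so the mix of Trav messages in bulk RNA depends on which cells were sampled and how much receptor message each made. In bulk RNA, fewer cells with a segment and less message per cell cannot be told apart.

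The members lie on the plus strand of chromosome 14 (mm10), from Trav1, which starts at 52427928, to Trac at 54220521 to 54224206, over 1796 kb. In mouse the middle of the locus is duplicated, and segment names carry the letter d or n where they belong to the copied blocks. Of the 108 segments, 46 had no such letter, 34 carried d (52683964 to 53079045) and 28 carried n (53091346 to 53370575). The copies are so alike that the reads of one can fit another. This was measured with 50-base words, 50 bases being the read length implied by the effective lengths in the tables. Each segment was given the percent of its words that occur in no other annotated gene.

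Stretches of 300 coding bases are printed for segments on which the results turn, 5′ to 3′ on the plus strand of mm10, with any intron inside the given coordinates left out. Capitals mark the bases at which the 2 sequences of a pair differ. The first pair is Trav5-4 (chr14:53704050-53704514), which had the largest difference between libraries, and Trav5d-4 (chr14:53001756-53002232), whose coding bases are identical to those of Trav5n-4 (chr14:53312947-53313422). The pair differs at 6 of 343 coding bases, all shown, and the longest stretch without a difference is 98 bases.
Trav5-4: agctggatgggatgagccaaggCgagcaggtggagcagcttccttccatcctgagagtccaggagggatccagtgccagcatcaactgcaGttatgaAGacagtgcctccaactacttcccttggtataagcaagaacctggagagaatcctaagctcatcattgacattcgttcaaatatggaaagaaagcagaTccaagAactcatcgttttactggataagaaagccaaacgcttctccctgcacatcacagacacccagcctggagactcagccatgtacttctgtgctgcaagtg
Trav5d-4: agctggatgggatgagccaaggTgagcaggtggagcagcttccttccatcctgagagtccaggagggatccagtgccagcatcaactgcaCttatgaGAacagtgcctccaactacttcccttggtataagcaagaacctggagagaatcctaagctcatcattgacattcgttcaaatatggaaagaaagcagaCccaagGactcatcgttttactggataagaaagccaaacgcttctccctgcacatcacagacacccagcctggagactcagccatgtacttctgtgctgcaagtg

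Trav7-4 (chr14:53461209-53461697) and Trav7d-4 (chr14:52769863-52770351), from the first coding base, are shown because they differ at only 2 of 341 coding bases and were nevertheless high in different libraries.
Trav7-4: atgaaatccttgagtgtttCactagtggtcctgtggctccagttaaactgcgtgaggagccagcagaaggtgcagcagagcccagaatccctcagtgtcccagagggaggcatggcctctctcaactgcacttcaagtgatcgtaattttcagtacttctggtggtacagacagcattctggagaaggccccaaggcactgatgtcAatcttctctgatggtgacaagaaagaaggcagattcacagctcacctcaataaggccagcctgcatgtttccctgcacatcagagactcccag
Trav7d-4: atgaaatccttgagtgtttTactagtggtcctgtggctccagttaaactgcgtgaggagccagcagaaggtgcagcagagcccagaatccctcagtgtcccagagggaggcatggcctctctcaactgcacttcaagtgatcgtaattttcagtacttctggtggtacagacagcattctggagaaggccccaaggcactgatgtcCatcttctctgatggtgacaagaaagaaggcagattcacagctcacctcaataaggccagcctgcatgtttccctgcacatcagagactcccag

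Trav4-4-dv10 (chr14:53683708-53684177) had the highest mean share of all segments. It is set beside Trav4d-4 (chr14:52990920-52991389), which is identical over its coding bases to Trav4n-4 (chr14:53302090-53302559). They differ at 8 of 331 coding bases.
Trav4-4-dv10: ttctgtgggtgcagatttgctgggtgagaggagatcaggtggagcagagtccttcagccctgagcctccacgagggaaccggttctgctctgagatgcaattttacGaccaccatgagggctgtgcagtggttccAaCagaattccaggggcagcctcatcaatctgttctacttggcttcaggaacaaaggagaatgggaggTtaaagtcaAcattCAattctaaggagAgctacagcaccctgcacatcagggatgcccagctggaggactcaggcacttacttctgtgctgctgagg
Trav4d-4: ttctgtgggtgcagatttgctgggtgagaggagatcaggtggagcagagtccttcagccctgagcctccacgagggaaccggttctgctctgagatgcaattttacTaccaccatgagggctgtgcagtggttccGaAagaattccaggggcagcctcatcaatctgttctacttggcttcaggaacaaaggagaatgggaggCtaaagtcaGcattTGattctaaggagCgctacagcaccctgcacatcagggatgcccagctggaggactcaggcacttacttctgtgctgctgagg

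Trav12d-3 (chr14:52929983-52930282) and Trav12n-3 (chr14:53240945-53241244) share all 347 coding bases, so no base is in capitals, although the deposited table gave nearly all reads to Trav12n-3.
Trav12d-3 and Trav12n-3: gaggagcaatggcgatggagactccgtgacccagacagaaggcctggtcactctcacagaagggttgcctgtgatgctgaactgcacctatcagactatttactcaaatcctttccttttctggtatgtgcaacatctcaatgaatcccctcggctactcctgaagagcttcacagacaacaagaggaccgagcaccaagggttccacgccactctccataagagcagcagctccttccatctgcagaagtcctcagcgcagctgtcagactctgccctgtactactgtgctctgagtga

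The libraries held 11829501, 14136139 and 10667765 estimated counts on genes (libraries 1, 2 and 3, in this order throughout). The Treg gene Foxp3 stood at 18.0, 14.3 and 16.0 TPM (a level per transcript length, scaled to the same total in each library). Il2ra stood at 85.6, 63.3 and 98.1 TPM, Ctla4 at 146, 96.4 and 130 and Ikzf2 at 451, 371 and 478. All 3 were lowest in library 2. Of the 4 Treg markers, these 3 passed the test described below, where 45.7% of all tested genes did. Foxp3 did not pass it (adjusted p = 0.117). Rag1 and Rag2, which recombine receptor genes in thymocytes, and Zbtb16, the factor of invariant NKT and MAIT cells, were at 0 counts in all 3. Other genes of the same marker lists had counts. Among thymocyte markers, Cd1d1 held 784, 921 and 881 counts, Ptcra 4, 5 and 2, and Dntt 0, 3 and 0. Among markers of invariant NKT and MAIT cells, Slamf1 held 1942, 2195 and 1742 counts and Klrb1c 9.24, 5.27 and 27.9. Markers of other cells were uneven. The summed level of the 3 B cell markers was 1.58, 21.1 and 22.5 TPM, of the 3 myeloid markers 8.71, 51.3 and 21.2, of the 3 NK markers 8.52, 25.7 and 8.57, and of the CD8 genes Cd8a and Cd8b1 5.88, 12.4 and 15.2. The NK sum was mostly Prf1, at 7.49, 25.2 and 6.73 TPM. Klrb1c stood at 0.56, 0.26 and 1.67 TPM and Ncr1 at 0.47, 0.26 and 0.17, so neither was highest in library 2. The part of these cells in the differences described here was not tested. The labels name no separate animals for the libraries, so p-values set differences between libraries against noise and say nothing of other mice.

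The amount of alpha chain message was close to even. Trac, the gene of the alpha constant region, stood at 2869, 2852 and 3009 TPM, or 2910 ± 86.3 (SD, n = 3), from 20016, 24285 and 19370 counts. The summed Trav level was 1829, 1735 and 1841 TPM, or 1802 ± 58.6. As CPM, counts scaled to the total of gene counts, the sum was 473, 444 and 483, or 467 ± 20.5, from 5599, 6273 and 5154 Trav counts. Per length, summed Trav thus reached 63.8, 60.8 and 61.2% of Trac. Trac has 2 annotated transcripts, and the one of 935 bases took 77.9, 79.6 and 78.8% of it.

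Trac nevertheless passed the test for a difference between libraries. The test is a chi-square of the counts against their shares expected from library size, with p adjusted over the 13970 genes whose mean count reached 10. For Trac the chi-square per degree of freedom was 8.16 (adjusted p = 0.00117), although library 3 exceeded library 1 by only 0.05 on the log2 scale. That difference was 0.10 with libraries scaled by total gene counts and 0.14 in the whole-number table, and both passed the threshold (adjusted p = 2.11e-11 and 0.00104). The call depended on library 1, without which the adjusted p was 0.504. With the spread between libraries that genes of like abundance show added to counting noise (edgeR's trended dispersion), it was 1.

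The composition of the Trav message differed far more. Of 108 segments, 81 had a mean count of 10 or more and were tested, and 71 of these (87.7%) differed between libraries. Over all tested genes the share called was 45.7%, so many genes exceeded counting noise. Folds were larger among the members than among all genes. Of the tested segments, 65 were called with over 2-fold between the highest and the lowest library, or 80.3%, where 9.93% of all tested genes did so. Over 4-fold stood 34 segments, with a background of 3.64%, and over 10-fold 10 segments, with a background of 1.25%. A library at 0 entered these folds with 3 counts, which touched 1 called segment. The median fold was 3.68 over tested segments and 1.26 over all tested genes. Counting noise widens folds at low counts, and folds of genes of matched abundance were not compared. Identical copies also enter as separate segments here.

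No library was high throughout. Of the 71 called segments, 25 were highest in library 1, 19 in library 2 and 27 in library 3. Of the 6388 called genes, 1959, 2165 and 2264 were highest in these libraries, or 14.0, 15.5 and 16.2% of all tested genes. With edgeR's trended dispersion added, 27 of 81 segments (33.3%) stayed past the threshold, against 1.23% of all genes. With the posterior SD of read assignment added in its place, 41 of 81 passed, against 40.5% of all genes. A total of 18 segments passed the main test, each of these additions and the test on the whole-number table, among them Trav4-4-dv10, Trav5-4, Trav8d-1 and Trav17. Only 40 segments could be tested in the whole-number table. The share of all genes passing every one of these tests is not given, so this count has no background beside it. Scaled by total counts or by DESeq2 size factors, 71 passed as well, where 46.1 and 47.1% of all genes did. Without library 1, 2 or 3, the count was 49, 52 and 52, with 33.8, 30.7 and 21.3% of all genes.

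**Figure D1:**
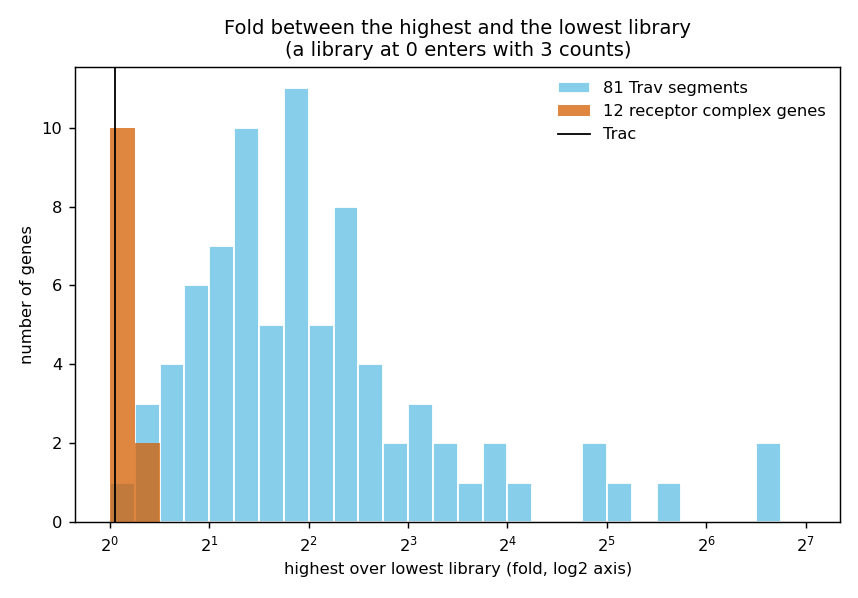
Histogram of the fold between the highest and the lowest library (log2 x axis, library sizes adjusted) for the 81 tested Trav segments (blue) and 12 genes of the receptor complex (orange), with the number of genes on the y axis and Trac as a line. The Trav segments spread around a median of 3.68-fold, while the receptor complex genes, whose counts are far higher, lie between 1.04- and 1.39-fold.

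Different segments led in each library. In library 1 the highest was Trav4-4-dv10 with 9.05% of summed Trav counts, in library 2 Trav5-4 with 10.6%, and in library 3 Trav14d-3-dv8 with 4.75%. The 10 highest segments of a library held 43.7, 53.4 and 35.6% of its summed Trav counts. Only Trav7-4 and Trav3-3 were among the 10 highest in all 3 libraries. Libraries 1 and 2 shared 4 of their 10 highest, libraries 1 and 3 shared 4, and libraries 2 and 3 shared 2.

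Evenness also varied. The effective number of segments, the inverse of the summed squared shares, was 34.8, 25.6 and 46.5, so library 2 was the most concentrated and library 3 the most even. Near-identical copies enter as separate segments here, which raises this number. As few as 13, 9 and 17 segments held 50% of the counts. Across the 108 segments, the rank correlation of shares was 0.56 for libraries 1 and 2, 0.59 for 1 and 3 and 0.69 for 2 and 3. On the log2(TPM + 0.1) scale Pearson's r over the 81 tested segments was 0.21, 0.17 and 0.41, against 0.966, 0.963 and 0.967 over all tested genes. These are correlations across genes that share libraries and, among copies, reads, and they describe only these libraries. The tested segments also span a narrower range of levels than all tested genes, which can lower r. Genes of matched abundance were not compared.

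**Figure D2:**
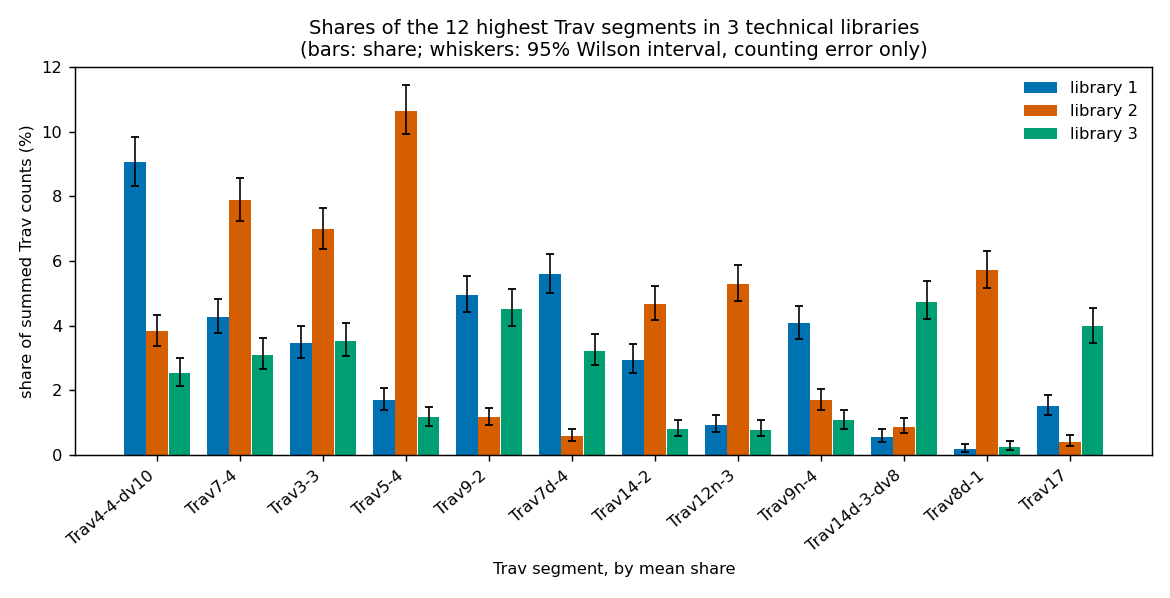
Share of summed Trav counts (%, y axis) of the 12 segments with the highest mean share, as bars for libraries 1 (blue), 2 (orange) and 3 (green), with 95% Wilson intervals as whiskers that cover counting error only. Trav5-4 in library 2 reaches 10.6% against 1.71 and 1.17% in the others, and Trav4-4-dv10 reaches 9.05% in library 1.

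Trav5-4 had the largest chi-square. It held 95.7, 668 and 60.4 counts, or 36.0, 208 and 24.8 TPM, and its share was 1.71% (95% Wilson interval 1.41 to 2.09), 10.6% (9.92 to 11.4) and 1.17% (0.904 to 1.49). Library 2 was high and did not overlap the others in counting error. The fold was 8.86 with a chi-square per degree of freedom of 330 (adjusted p = 2.49e-141, or 9.09e-17 with the dispersion added). Without library 2 the remaining difference was 0.58 on the log2 scale, with an adjusted p of 0.0461.

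Trav8d-1, a segment of the d block, also had its peak in library 2. Its counts were 10.4, 358 and 12.8, so it was low outside library 2. The fold was 30.5 (adjusted p = 1.88e-109), and without library 2 no difference was left past the threshold (0.48 on the log2 scale, adjusted p = 0.597). Its level was 3.27, 93.4 and 4.40 TPM.

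Trav12n-3 also peaked in library 2, at 52.6, 332 and 40.6 counts. The fold was 6.45 (adjusted p = 3.03e-62), and without library 2 the adjusted p was 0.531. The identical Trav12d-3 was given under 1 count in every library, and only 0.3% of the words of Trav12n-3 are its own. The split between the copies is therefore uncertain, while their sum, 52.6, 332 and 40.6 counts, does not depend on it.

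Trav14-2 and Trav3-3 were further segments highest in library 2. Trav14-2 held 165, 293 and 41.5 counts and was low only in library 3 (5.69-fold, adjusted p = 6.62e-29). Trav3-3 held 194, 437 and 182 counts, so libraries 1 and 3 were close. Its fold of 1.92 passed the test on counting noise (adjusted p = 1.59e-18) but not with the dispersion added (adjusted p = 0.126) nor without library 2 (adjusted p = 0.982).

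Library 1 was led by Trav4-4-dv10, one of the segments whose name records use with delta chains as well. Its counts were 507, 240 and 130, and every pair of libraries differed past the threshold when the other one was left out. The share was 9.05% (8.33 to 9.84), 3.82% (3.38 to 4.33) and 2.53% (2.13 to 2.99). The fold was 3.64 with a chi-square per degree of freedom of 136 (adjusted p = 1.05e-57). Trav4d-4 and Trav4n-4, printed above through their common coding sequence, held 32.9, 33.5 and 112 counts each and were highest in library 3, where Trav4-4-dv10 was lowest (4.14-fold, adjusted p = 7.07e-19). With the posterior SD of read assignment added, neither copy passed the threshold (adjusted p = 0.578 and 0.580), while the test on counting noise of their sum, 65.9, 67.0 and 224 counts, gave an adjusted p of 2.05e-38.

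Trav9n-4 had the same order of libraries as Trav4-4-dv10, at 228, 106 and 55.2 counts (3.87-fold, adjusted p = 4.88e-27). Trav9-2 was instead high in libraries 1 and 3 and low in library 2, at 277, 73.2 and 233 counts (4.45-fold, adjusted p = 9.95e-34). Without library 2 its adjusted p was 0.396. Both belong to the Trav9 subgroup, which summed to 11.6, 5.90 and 10.7% of Trav counts.

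Trav7-4 and Trav7d-4 are 99.4% identical over their coding bases, and library 2 was the highest for one and the lowest for the other. Trav7-4 held 239, 494 and 160 counts, with library 3 lowest (2.46-fold, adjusted p = 3.03e-26). Trav7d-4 held 313, 36.7 and 166 counts, with library 1 highest (9.92-fold, adjusted p = 7e-55). Their posterior SDs were 5.19 and 9.14% of their counts, and in the whole-number table they kept the same orders at 44, 91 and 28 against 53, 6 and 25 counts.

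Library 3 was led by Trav14d-3-dv8. Its counts were 31.6, 54.6 and 245, and its share was 0.563% (0.404 to 0.804), 0.870% (0.674 to 1.14) and 4.75% (4.21 to 5.37). The fold was 8.20 (adjusted p = 1.76e-64). Libraries 1 and 2 did not differ past the threshold when library 3 was left out (adjusted p = 0.221).

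Trav3-1 and Trav12-1 were likewise high in library 3. Trav3-1, which lies upstream of the d block, held 6.14, 16.9 and 162 counts (28.9-fold, adjusted p = 5.39e-62), and without library 3 its adjusted p was 0.164. Trav12-1 held 12.5, 76.3 and 202 counts, and every pair of libraries differed past the threshold (18.0-fold, adjusted p = 2.86e-49). Trav12n-3 of the same subgroup had its peak in library 2.

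Trav17 gives the clearest reading of a single segment. All of its 50-base words are its own, its posterior SD was 0, and the whole-number table held 88, 28 and 195 counts where the estimates were 85, 26 and 205. The segment was thus lowest in library 2 and highest in library 3 in both tables. The fold was 9.90 (adjusted p = 5.22e-43, or 2.85e-05 with the dispersion added). In all, 8 segments consist of unique words only, namely Trav1, Trav2, Trav5-1, Trav17, Trav18, Trav19, Trav21-dv12 and Trav23. Of the 6 of these that were tested, Trav2, Trav17 and Trav19 differed between libraries. That is 50% of them, near the 45.7% of all tested genes and below the 87.7% of all tested segments, in a class of only 6. Trav19 held 129, 37 and 49 counts (4.09-fold, adjusted p = 1.27e-16).

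Of the tested segments, 10 did not pass the threshold: Trav1, Trav5-1, Trav7-1, Trav6-2, Trav5d-4, Trav5n-4, Trav13n-1, Trav14-1, Trav13-2 and Trav21-dv12. The highest of them was Trav14-1, at 58.8, 75.1 and 43.7 counts (1.36-fold, adjusted p = 0.359). Trav21-dv12, whose words are all unique, held 45, 51 and 32 counts (1.31-fold, adjusted p = 0.544). A p above the threshold does not show that the libraries were equal.

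Subgroups, the number after Trav in a name, differed in share as well. The Trav4 subgroup of 7 segments held 16.7% of summed Trav counts in library 1 (95% Wilson interval 15.8 to 17.7), 5.64% in library 2 (5.10 to 6.24) and 10.2% in library 3 (9.37 to 11.0). The Trav5 subgroup held 3.11, 12.7 and 2.93%, and Trav8 held 2.32, 8.09 and 1.29%, mostly through Trav5-4 and Trav8d-1 in library 2. Trav12 held 4.79, 13.7 and 10.5%. Trav13 with 11 segments held 2.79, 2.09 and 5.98%, highest in library 3. Of the other subgroups with 9 or more segments, Trav6 with 15 segments held 10.8, 12.6 and 12.9%, Trav14 with 9 held 12.1, 11.4 and 10.1%, and Trav7 with 13 held 18.4, 13.5 and 13.6%.

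The letter classes differed in share between libraries too. Segments without a letter held 56.8, 59.2 and 51.8% of summed Trav counts, d copies 22.7% (95% Wilson interval 21.6 to 23.8), 22.0% (21.04 to 23.1) and 26.6% (25.5 to 27.9), and n copies 20.5, 18.8 and 21.6%. These class shares depend on how reads were split between near-identical copies of different classes, which the intervals do not cover. Trav12n-3 alone, with 0.3% of its words its own, held 5.29% in library 2. The 7 segments upstream of the d block held 2.05% (1.71 to 2.46), 1.78% (1.49 to 2.14) and 5.32% (4.74 to 5.96), the last through Trav3-1. The segments from Trav17 to Trav23, nearest to Trac, held 4.66, 1.87 and 5.57%. The 10 segments with a delta designation in their names held 14.1, 8.26 and 9.69%.

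**Figure D3:**
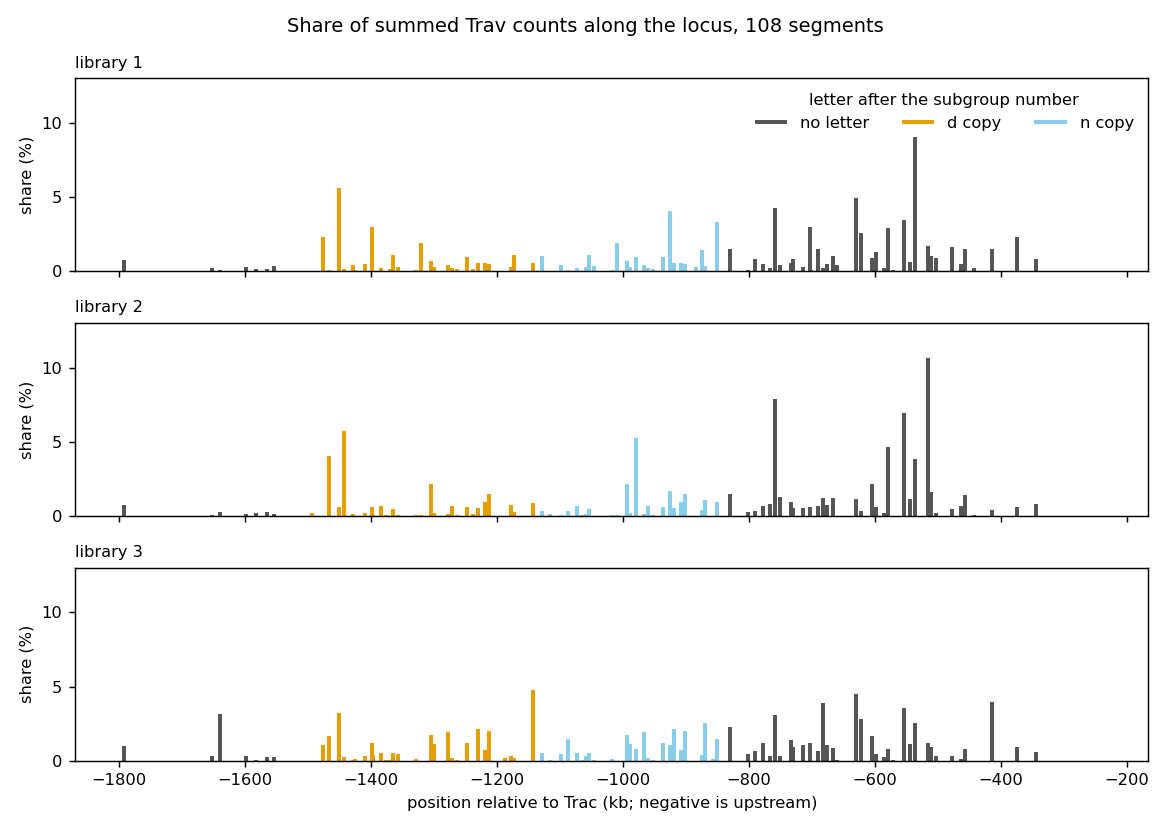
Share of summed Trav counts (%, y axis) of each of the 108 segments against its position relative to Trac (kb, x axis), with a panel for each library and colours for segments without a letter (grey), d copies (orange) and n copies (blue). High segments occur in all 3 blocks, and the tallest lines stand at different segments in each library.

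Uncertainty of read assignment followed sequence uniqueness. The tables give a posterior SD of each count, which states how far the model could move reads between genes. Among segments with a mean count of 10 or more, the median SD was 0% of the count for the 6 with unique words only. It was 5.40% for the 27 with at least 50% unique words, 13.4% for the 22 between 5 and 50% and 55.2% for the 26 under 5%. The largest SDs were those of Trav5d-4 (60.8%), Trav5n-4 (60.7%), Trav7d-5 (60.1%) and Trav7n-5 (59.9%).

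**Figure D4:**
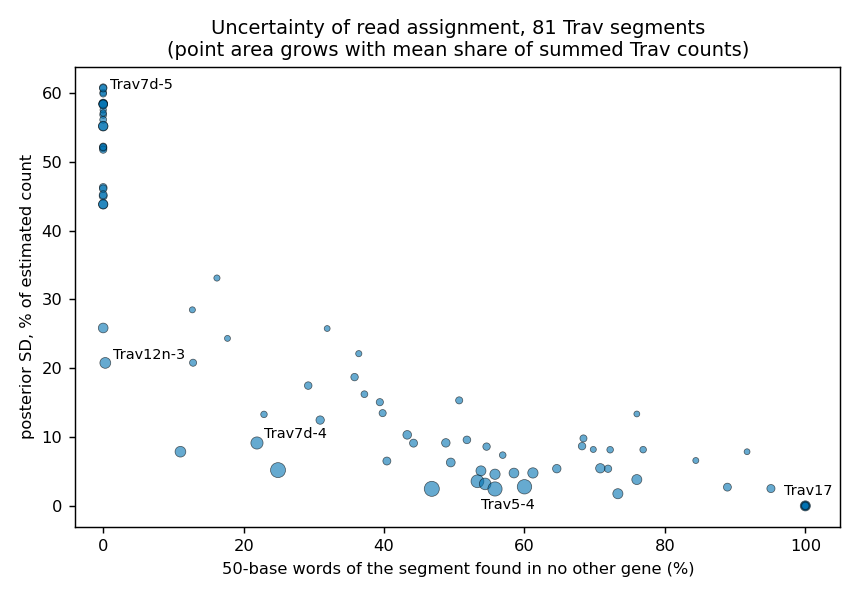
Posterior SD as a percent of the estimated count over the 3 libraries (y axis) against the percent of a segment's 50-base words found in no other gene (x axis), for the 81 Trav segments with a mean count of 10 or more, with point area growing with mean share. The SD is 0 where all words are unique and reaches 60.8% where none is.

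Most near-identical copies were given equal counts. Segments were joined into groups where at least 95% of the words of either occur in the other, which gave 20 pairs and 88 groups in all. In 15 of the 20 pairs the estimated counts of both copies were equal (within 0.011 counts) in all 3 libraries. Trav5d-4 and Trav5n-4 each held 31.6, 59.6 and 37.8 counts (adjusted p = 0.154 each), and their sum of 63.3, 119 and 75.6 counts passed the threshold (adjusted p = 0.0208). Trav7d-5 and Trav7n-5 each held 13.6, 42.5 and 26.8 counts. The call on each of them (adjusted p = 0.0191) was lost with the posterior SD added (adjusted p = 0.665 and 0.664) and without library 1 (0.555) or library 2 (0.072).

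Among such pairs, Trav4d-3 and Trav4n-3 showed the widest range. Together they held 213, 8.0 and 1.0 counts, almost all in library 1 (adjusted p = 2.78e-88 for the sum). Trav13d-2 and Trav13n-2 together held 45.7, 16.0 and 201 counts, highest in library 3 (adjusted p = 1.53e-58). Trav6d-6 and Trav6-6 together held 335, 75.3 and 124 counts, highest in library 1. Their joint share there was 5.99%, above every single segment but Trav4-4-dv10. These pairs were chosen after their values were seen. Counting groups in place of segments, 61 of 71 tested groups differed between libraries, with a background of 45.7%. The mean effective number over the libraries was 31.5 with groups against 35.6 with segments. The 10 highest held 47.8% of summed Trav counts on average with groups and 44.2% with segments.

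The whole-number table holds fewer reads in all, not only on the locus. Its totals were 2988262, 3386154 and 2734873, against 11829501, 14136139 and 10667765 estimated counts on genes. Among Trav segments, the part kept was smallest where copies are alike. That table has 98 of the 108 segments, and summed Trav counts were 1610, 1831 and 1632, or 28.8, 29.2 and 31.7% of the estimated counts. For segments of unique words only, the median was 92.0% of the estimated count. It was 54.1% for those with at least 50% unique words, 18.6% between 5 and 50%, and 0% under 5%. A total of 29 segments were at 0 in all 3 libraries in that table while the other table gave them 1257 counts on average in sum, and all 29 have under 5% unique words. Of the 40 segments testable there, 31 differed between libraries, with a background of 21.5%.

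Trac itself kept only 1052, 1109 and 1083 whole-number counts, or 5.26, 4.57 and 5.59% of its estimated counts. Summed Trav counts were therefore 28.0, 25.8 and 26.6% of Trac counts in the estimates but 153, 165 and 151% in the whole-number table. The reason was not tested, and a Trav to Trac ratio from either table depends on how reads were counted.

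**Figure D5:**
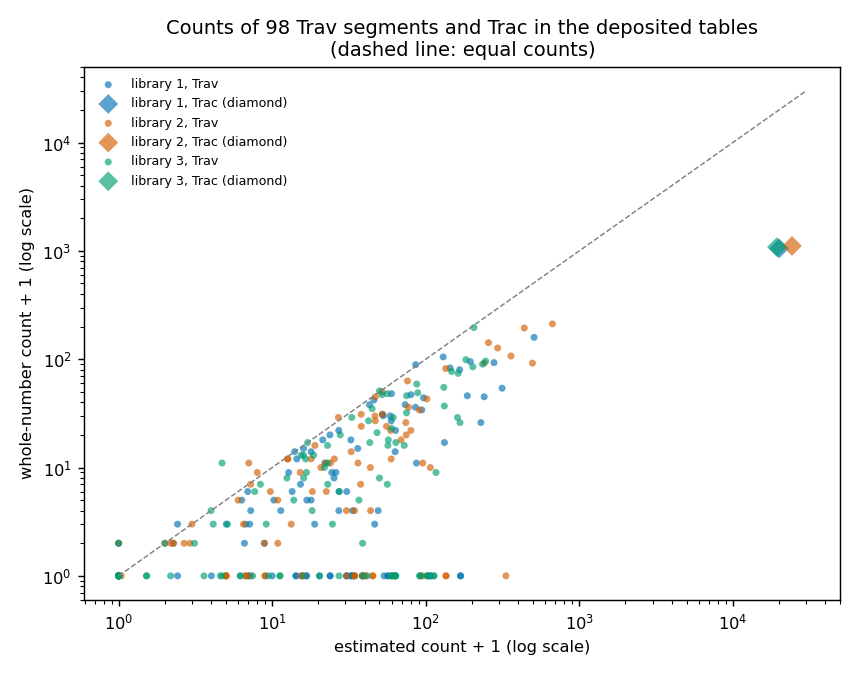
Whole-number count plus 1 (y axis, log scale) against estimated count plus 1 (x axis, log scale) for 98 Trav segments (circles) and Trac (diamonds), coloured by library, with a dashed line of equal counts. Trac lies far below the line at 1052 to 1109 whole-number counts, and 29 segments lie on the floor in all 3 libraries.

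Segments of innate-like T cells were low or did not pass the test. Trav1, which MAIT cells join to Traj33, held 42, 46 and 51 counts, or 14.7, 13.3 and 19.4 TPM, and did not pass the threshold (1.39-fold, adjusted p = 0.311). Traj33 had 4, 11 and 2 counts. Trav11 and Trav11d, the segments of invariant NKT cells, cannot be told apart in sequence: neither has a word of its own. Together they held 5.6, 4.0 and 19.4 counts, or 0.10% (0.0491 to 0.234), 0.0638% (0.0248 to 0.164) and 0.376% (0.236 to 0.575) of summed Trav counts, and were below the count minimum of the test. Traj18, their J partner, had 10, 26 and 21 counts (adjusted p = 0.111). Which V was joined to which J cannot be read from counts per gene.

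Segments at the bottom of the range were also recorded. At 1 TPM or more in all 3 libraries stood 80 of 108 segments, and 17 had 0 counts in at least 1 library, which allows a share of up to 0.0536, 0.0478 or 0.0582% (3 counts) there. Under 1 TPM in all libraries were Trav7d-2, Trav12d-3, Trav13d-4, Trav7n-6, Trav18 and Trav23. Trav7d-2, at 0 throughout, shares nearly all its words with Trav7-2, which held 86.0, 94.7 and 116 counts. Trav7n-6 has no word of its own and shares 99.7% of its words with C920008G01Rik, a V gene without a Trav name. That gene held 9.72, 23.3 and 18.3 counts, and the split of reads between it and Trav7n-6 is uncertain. Trav18 and Trav23, with at most 2 counts in a library, have unique words only.

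Other genes of the receptor differed by much smaller factors, but from far higher counts, which narrows the counting noise in a fold. The lowest of them, Cd247, held 3160, 5051 and 2992 counts. The list of 12 held the beta constant genes Trbc1 and Trbc2, the CD3 signalling chains Cd3d, Cd3e, Cd3g and Cd247, the coreceptor Cd4, the kinases Lck and Zap70, the adaptor Lat, the phosphatase Ptprc and the costimulatory receptor Cd28. All 12 passed the test, where 45.7% of all tested genes did, with folds from 1.04 to 1.39 and a median of 1.16, and none exceeded 2-fold. With the dispersion added none passed after adjustment, where 1.23% of all genes did, and 1 had an unadjusted p under 0.05. Without library 2, 7 of 12 passed, where 30.7% of all genes did. Trbc1 was the most uneven, at 1641, 1314 and 1929 TPM (1.39-fold, adjusted p = 2.72e-111), while Trbc2 stood at 3640, 3634 and 3676 TPM.

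V segments of the beta chain locus gave a comparison from another receptor gene. Of 21 Trbv segments tested, 19 differed between libraries and 12 of these by over 2-fold, where 45.7 and 9.93% of all tested genes did so. The median fold was 2.24 for Trbv and 3.68 for Trav, while the median chi-square per degree of freedom, which grows with counts, was 36.5 for Trbv and 16.6 for Trav. The difference between the loci was not tested. The delta constant gene Trdc, whose locus lies inside the alpha locus, held 44, 43.0 and 56.0 counts, or 1.27, 1.03 and 1.77 TPM, and did not pass the threshold (adjusted p = 0.0848). Trav segments with a delta designation can be used in delta chains too, and the part of such chains in their counts was not tested.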

How the data were processed

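Each library came with a table of estimated counts per gene in the RSEM layout, per the file headers, in which the authors shared multi-mapped reads by a model on mm10 and GENCODE M21. The deposited TPM values rest on effective lengths. The deposited posterior SD is a signal, in reads, of assignment uncertainty. Deposited transcript tables gave the percent of a gene's TPM per transcript. The whole-number counts per gene were made by the authors on GENCODE M4, as deposited. Aligner, versions, read length, strand setting and duplicate treatment were not given in the sources used.

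Estimated counts were rounded. The quasi-likelihood test of edgeR needs groups to compare, and here there is 1. Counts were tested per gene for homogeneity across libraries (Poisson chi-square) with TMM sizes (edgeR 4.0.16, R 4.3.3; factors 0.995, 0.975 and 1.03), for the 13970 genes whose mean count reached 10, with Benjamini-Hochberg adjustment at 0.05. The script was tested on simulated data. The test treats reads as independent; PCR copies are not, so Wilson intervals and 3-count floors cover counting error only. Words of 50 bases came from the GENCODE M21 transcripts; sequences came from the same transcripts, and coordinates from its annotation. Size factors of DESeq2 1.42.0 served as an alternative. Copy groups and ratios to Trac were alternatives chosen after seeing the data. Antisense genes overlap Trav13d-3 and Trav13n-3.

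Named were Trac, the 12 segments of highest mean share, the 8 of largest chi-square among those called, the 4 of largest posterior SD, Trav1, Trav11 and Trav11d with Traj33 and Traj18, and the receptor complex list; others were added to describe groups. Members and lists were chosen with earlier results of these data known.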

Additional observations from a re-analysis of the deposited data

Results flagged for a closer look

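A set of 3 entries in the alpha locus that the Trav rule leaves out held more than 3 counts in every library, the limit that a count of 0 allows; there are no control samples. C920008G01Rik, annotated as a V gene among the d copies but without a Trav name, had a mean of 17.1 counts, from 9.72, 23.3 and 18.3, and did not pass the test (adjusted p = 0.237). All its words also occur in Trav7n-6, so its reads cannot be told from those of that segment. Trav8-2, annotated as a pseudogene, had a mean of 20.05 counts, from 5.15, 50.4 and 4.59, with library 2 high. Trdv1, a delta V segment, had a mean of 22.0 counts, from 20, 10 and 36, and differed between libraries (adjusted p = 8.61e-05).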

How the results depend on the processing

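No paired analysis was possible because all libraries belong to 1 group. The 71 differing segments became 41 with the posterior SD added to the variance, 27 with edgeR's trended dispersion added and 31 in the whole-number counts, where only 40 could be tested. Leaving out a library gave 49 to 52. Other scalings gave 71. The receptor complex count of 12 fell to 0 with the dispersion, where 1 gene had an unadjusted p under 0.05, and ranged from 7 to 11 without a library. The Trac difference of 0.051 (log2) lost its call with the dispersion (0.051, adjusted p = 1, unadjusted p = 0.959) and ranged from 0.013 to 0.051 without a library. It was 0.102 with total gene counts and 0.142 in whole-number counts. Whole-number counts moved the share of the 10 highest segments from 44.2 to 56.2%, the effective number from 35.6 to 22.9, the detected segments from 80 to 37 and summed Trav from 467 to 559 CPM. In TPM the sum was 1802. Without a library these ranged from 39.6 to 48.5%, from 30.2 to 40.7, from 84 to 86 and from 458 to 478 CPM. The largest share, that of Trav5-4 in library 2, was 10.6% in counts, 11.99% in TPM and 11.5% in whole-number counts. Of the 21 named segments, 19 could be tested. Of their 126 values under another scaling, filter, variance or table, 121 kept the outcome of the main test, called or not called, and 5 lost a call. The filter and variance settings reuse the same counts and library sizes, so the sign of the difference was fixed there. With the other scalings and the whole-number counts, 0 values changed the sign between the libraries highest and lowest in the main test. Of 57 values with a library left out, which compare only the remaining libraries, 47 kept the outcome and 10 lost a call. Trav1, Trav5d-4 and Trav5n-4 were not called in the main test, so their kept outcomes are not kept calls. Most named segments were picked for a high share or a large difference in these data. Causes were not tested. Segments under about 10 counts carry little information at this depth.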

Other observations

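J segments and pseudogenes of the locus carried few counts. The 51 Traj genes summed to 286, 381 and 280 counts in libraries 1, 2 and 3, and 42 of them were at 1 TPM or more in all libraries. Their effective lengths are very short, so their TPM values are inflated beside those of V segments. Of 11 Traj genes tested, 5 differed between libraries (45.5%), a share close to the 45.7% of all tested genes. The 20 Trav pseudogenes summed to 26.9, 66.3 and 27.8 counts. Among gamma-delta markers the constant genes Tcrg-C1 and Tcrg-C2 held 20.4, 53.6 and 38.3 counts and 36.2, 47.5 and 13.7 counts.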
